A study of Mus musculus with 6 samples.

Results

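The guanylate-binding proteins (GBPs) and immunity-related GTPases (IRGs) followed here are the products of 10 genes, Gbp2, Gbp3, Gbp7, Gbp4, Gbp6, Gbp9, Irgm1, Irgm2, Igtp and Iigp1, taken by name from the 48587 genes of a counts table of mouse mammary carcinoma cells. They were selected on their family names with the counts of these libraries, and the differences between the groups in them, already known, so these differences, and the thresholds they passed, are given as a description and support nothing. RNA-Seq was performed on total RNA depleted of ribosomal RNA from 4T1 cells, a mouse mammary carcinoma line, to measure the effect of METTL7A1, a putative methyltransferase, on the transcriptome. METTL7A1 cells (3 libraries) carried a stably transfected full-length Mettl7a1 cDNA in the pBICEP-CMV-2 vector, mock cells (3 libraries) were the control, which the study describes as cells with the empty vector, and 4T1 transfectants were kept under 350 μg/ml G418. Whether each line was a clone or a mixture of transfected cells is not given in the sources used here, and nothing states that the triplicates came from separate transfections, so p values measure only the spread between these libraries. Of the 10 genes, 8 reached 1 cpm (read counts relative to the size of the library) in 3 or more libraries, as did 13166 genes in all, and Gbp6 and Iigp1 did not.

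GBPs are large GTPases of the dynamin superfamily, and IRGs are a separate family of smaller GTPases. Both families are strongly induced by interferons, above all interferon-γ, and act inside the cell, where they assemble on vacuoles that hold bacteria or parasites and on bacteria themselves, and help to open them and to alert inflammasomes. Among the IRGs, Irgm1, Irgm2 and Igtp (also called IRGM3) belong to the GMS group, which keeps the effector IRGs of the GKS group, such as Iigp1 (IRGA6), off the membranes of the cell itself.

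The stretches of 120 bases before the RefSeq start sites are shown because the promoters of these genes hold the letters through which interferon-activated factors are known to act, so that a reader can see what the members with counts share. RefSeq promoters (GRCm38.p6) were matched for 6 of the 10 genes. No RefSeq promoter was found for Gbp4, Gbp6 and Gbp9. The promoter of Iigp1 was left out of the search, so the promoter counts given below do not cover it. Capitals mark matches to the core of the interferon-stimulated response element (ISRE, GAAANNGAAA, or TTTCNNTTTC when read on the other strand) and to the interferon-γ-activated sequence (GAS, TTCNNNGAA), searched on both strands. Each line runs 5′ to 3′ along the strand of its gene. The windows lie at chr3:142620543-142620662, chr3:142559924-142560043 and chr3:142530216-142530335 on the plus strand, at chr11:48871421-48871540 on the minus strand, and at chr11:58214857-58214976 and chr11:58199436-58199555 on the plus strand.
Gbp2: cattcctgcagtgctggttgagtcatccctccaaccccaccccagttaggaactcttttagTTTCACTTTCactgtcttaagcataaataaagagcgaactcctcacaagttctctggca
Gbp3: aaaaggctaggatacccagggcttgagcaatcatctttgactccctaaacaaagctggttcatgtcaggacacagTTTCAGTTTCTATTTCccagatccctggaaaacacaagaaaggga
Gbp7: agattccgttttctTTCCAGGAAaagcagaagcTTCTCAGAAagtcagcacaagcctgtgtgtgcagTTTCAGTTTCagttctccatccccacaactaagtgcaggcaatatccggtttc
Irgm1: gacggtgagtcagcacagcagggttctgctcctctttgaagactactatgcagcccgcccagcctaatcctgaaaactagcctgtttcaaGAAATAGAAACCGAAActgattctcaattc
Irgm2: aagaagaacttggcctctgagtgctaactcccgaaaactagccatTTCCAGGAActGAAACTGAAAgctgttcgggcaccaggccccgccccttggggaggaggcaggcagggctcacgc
Igtp: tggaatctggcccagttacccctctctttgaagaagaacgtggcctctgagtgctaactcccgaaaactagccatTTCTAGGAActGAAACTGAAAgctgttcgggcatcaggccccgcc

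The 6 genes had 7 promoters in RefSeq, 2 of them of Gbp3. Of these 7, 6 held an ISRE core within the 250 bases before and 50 bases after the start site, against 3.44% of 32851 RefSeq promoters of the same length, and the other promoter of Gbp3, which starts further downstream, held neither motif. GAS was found in 3 of the 7 (Gbp7, Irgm2 and Igtp), against 8.3% of all promoters, and both motifs stood together in the same 3, against 0.454%. Of the 11 promoters of other GBP and IRG genes that were searched, 7 held an ISRE core and 5 held GAS. Whether the motifs had a part in the differences between the groups was not tested. Counted to the first base of the match on the strand of the gene, the ISRE core stood 59 bases before the start in Gbp2, 45 and 39 bases before it in overlapping matches of the first Gbp3 promoter, which is the one shown, 53 in Gbp7, 30 and 24 in overlapping matches of Irgm1, 64 in Irgm2 and 34 in Igtp. Gbp7 had GAS matches 106 and 87 bases before the start. Irgm2 and Igtp shared an arrangement, chosen after the promoters were seen, in which a GAS match was followed after 2 bases by an ISRE core (TTCNNNGAANNGAAANNGAAA). It was present in 5 of 32851 promoters, all of IRG genes (Irgm2, Igtp, Tgtp1, Tgtp2 and Gm12185). The lines of Igtp and Irgm2, shifted by 30 bases, were identical at 87 of 90 aligned bases. A match describes the letters of the window and does not show that a factor was bound there.

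Most members were read at a few cpm in mock cells and at higher levels in METTL7A1 cells. Summed over the 10 genes, the level was 73.3, 81.1 and 78.0 cpm in the METTL7A1 libraries and 26.4, 31.1 and 29.1 cpm in the mock libraries, or 77.5 ± 3.93 against 28.9 ± 2.36 cpm (mean ± SD, n = 3 in each group here and below). Library sizes were scaled with TMM factors. Of the 10 genes, all 8 tested had an adjusted p under 0.05 and a higher level in METTL7A1, where 21.1% of all genes tested were called higher and 21.0% lower. At the thresholds of the study, an adjusted p under 0.01 with a log2 fold change over 1.5, 4 of the 10 were called (Gbp4, Gbp9, Gbp7 and Igtp), where 1.61% of all genes tested were called higher. In these 8 genes each METTL7A1 library lay above each mock library, as in 25.9% of all genes tested. Gbp4 passed the abundance filter through the METTL7A1 libraries alone and so had to differ. Because the genes were chosen with these values known, nothing is read from the counts.

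**Figure D1:**
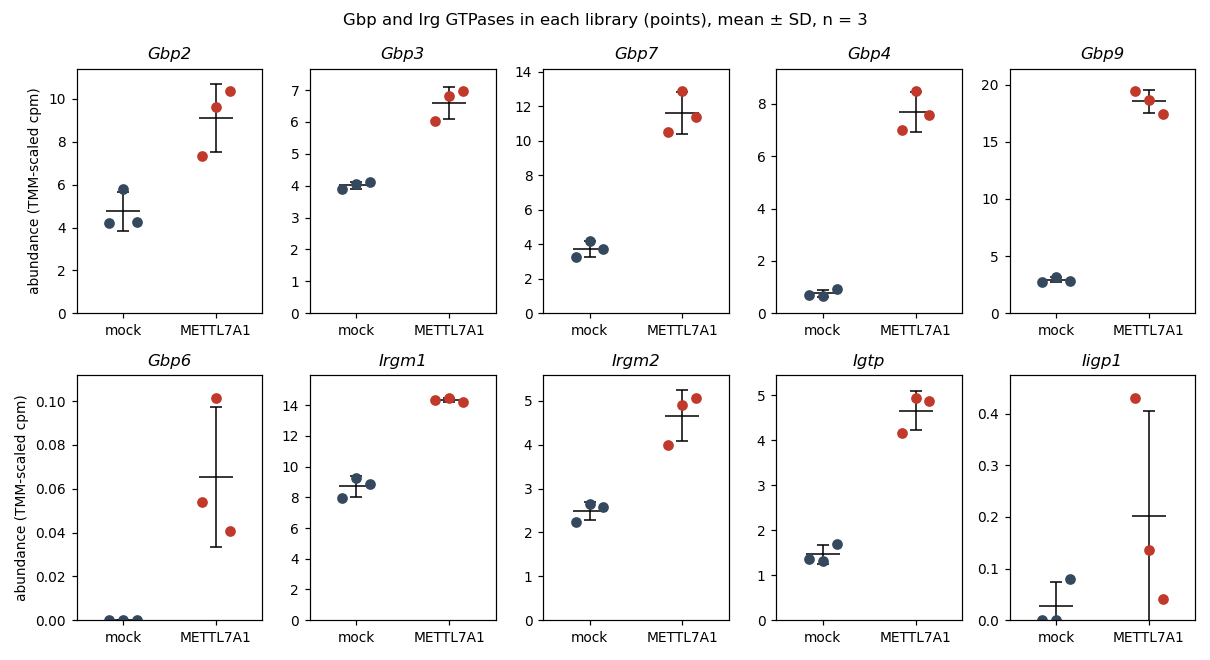
Level of each of the 10 GBP and IRG genes (cpm, linear axes that start at 0 and differ between panels) in the 3 mock and 3 METTL7A1 libraries (points), with the mean ± SD of each group, bars ending at 0. In every panel except Iigp1 all METTL7A1 points lie above all mock points, but Gbp6, like Iigp1, stays under 1 cpm in every library.

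On chromosome 5, Gbp4 and Gbp9 had the largest differences of the members. Gbp9 (chromosome 5, 105077630 to 105139539) was read at 19.5, 18.7 and 17.4 cpm in METTL7A1 and at 2.73, 3.18 and 2.86 cpm in mock, a log2 fold change of 2.66 ± 0.12 (standard error, SE, here and below). Gbp4 (chromosome 5, 105115767 to 105139586) was read at 7.01, 8.50 and 7.58 cpm in METTL7A1 and at 0.711, 0.660 and 0.926 cpm in mock, with a log2 fold change of 3.32 ± 0.20. Neither gene showed overlap between the groups, and Gbp4 had only 13, 16 and 23 counts in the mock libraries. Gbp6 (chromosome 5, 105272411 to 105293696) had 1, 3 and 1 counts in METTL7A1 and 0 in each mock library. At a floor of 3 counts per library, which corresponded to between 0.102 and 0.164 cpm, no fold change can be given for it. Of the stretches of 31 bases in Gbp6 transcripts, 74.2% also occurred in other genes, most of them in Gm43302, so that reads of Gbp6 could have been shared or lost in counting.

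The members on chromosome 3 differed less. Gbp7 (chromosome 3, 142530342 to 142550149) was read at 10.5, 12.9 and 11.4 cpm in METTL7A1 and at 3.28, 4.21 and 3.70 cpm in mock, a log2 fold change of 1.63 ± 0.14. Gbp2 (chromosome 3, 142620602 to 142638008), which carries a prenylation signal at its C-terminus and attaches to membranes through it, was read at 7.33, 9.62 and 10.4 cpm against 4.21, 5.78 and 4.27 cpm, with a log2 fold change of 0.94 ± 0.17. Its METTL7A1 libraries had the largest SD of the GBP members, 1.59 cpm, and the lowest of them still lay above the highest mock library. Gbp3 (chromosome 3, 142560052 to 142573209) was read at 6.04, 6.81 and 6.97 cpm against 3.88, 4.04 and 4.11 cpm, with a log2 fold change of 0.72 ± 0.14. Gbp2 and Gbp3 fell under the fold threshold of the study.

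Among the GMS group of IRGs, all on chromosome 11, Igtp differed most. Igtp (58199556 to 58207591) was read at 4.15, 4.94 and 4.87 cpm in METTL7A1 and at 1.37, 1.32 and 1.69 cpm in mock, a log2 fold change of 1.67 ± 0.19. Irgm2 (58199618 to 58222782) was read at 3.99, 4.91 and 5.07 cpm against 2.24, 2.64 and 2.58 cpm, with a log2 fold change of 0.90 ± 0.18. Irgm1 (48865245 to 48871374), whose loss in mice is known to weaken defence against mycobacteria, was read at 14.3, 14.5 and 14.2 cpm against 7.98, 9.28 and 8.86 cpm, with a log2 fold change of 0.72 ± 0.10. The closest members inside and outside the fold threshold were thus Gbp7 and Igtp at 1.63 and 1.67, and Gbp2 and Irgm2 at 0.94 and 0.90 on the log2 scale.

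Iigp1, the only GKS effector among the members, was barely read. Its counts were 8, 4 and 1 in METTL7A1 and 0, 0 and 2 in mock, so that the groups overlapped. Over the group sums of 13 and 2 counts, scaled by library size, the ratio was 6.02, with a 95% exact interval for counting error from 1.36 to 54.9.

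**Figure D2:**
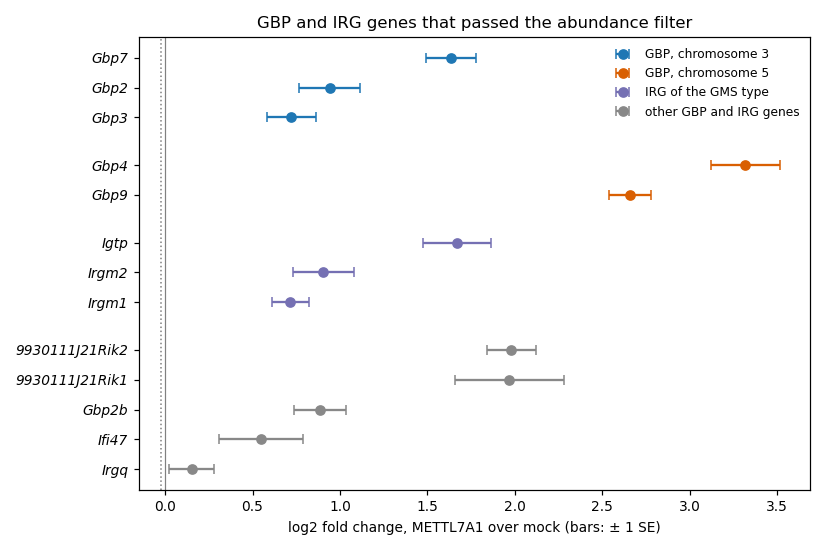
Difference between METTL7A1 and mock (log2 fold change ± SE, linear axis of log2 units) for the GBP and IRG genes that passed the abundance filter, coloured by group, with a dotted line at the median of all genes tested, −0.03. Gbp4 and Gbp9 stand at 3.32 and 2.66, and Irgq, at 0.15, lies nearest to 0.

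Levels of different genes were compared per kilobase of annotated exon. In mock cells Irgm1 had the highest level of the members at 3.85 ± 0.294 cpm per kb, followed by Gbp2 at 1.89 ± 0.353 and Gbp3 at 1.31 ± 0.0380 cpm per kb. Igtp, Irgm2, Gbp7 and Gbp9 came next at 0.722, 0.674, 0.665 and 0.658 cpm per kb and neighbours in this order differed by less than their SD, which ranged from 0.0516 to 0.0997 cpm per kb. Gbp4 was lower at 0.169 ± 0.0311 cpm per kb. In METTL7A1 cells Irgm1 was again first at 6.35 ± 0.0575 cpm per kb, and Gbp9 had moved to the second place at 4.17 ± 0.229 cpm per kb, with Gbp2 at 3.62 ± 0.631 within one SD of it. Igtp, Gbp3 and Gbp7 followed at 2.30 ± 0.216, 2.16 ± 0.164 and 2.07 ± 0.215 cpm per kb, neighbours in this order again differing by less than their SD, and Gbp4 at 1.70 ± 0.166 cpm per kb now lay above Irgm2 at 1.26 ± 0.158 cpm per kb. The order is that of these annotated lengths, since the isoforms in use were not measured.

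The members did not rise in proportion. Of the summed counts of the 10 genes in a library, Gbp9 took 10.1 ± 0.268% in mock and 24.0 ± 2.25% in METTL7A1, and Gbp4 took 2.67 ± 0.532% and 9.92 ± 0.492%. The share of Irgm1 was 30.2 ± 0.318% in mock and 18.6 ± 0.887% in METTL7A1, that of Gbp2 was 16.4 ± 1.98% and 11.7 ± 1.66%, and that of Gbp3 was 13.9 ± 0.866% and 8.52 ± 0.370%. These shares are not corrected for length, so each is compared between groups and not with that of another gene.

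**Figure D3:**
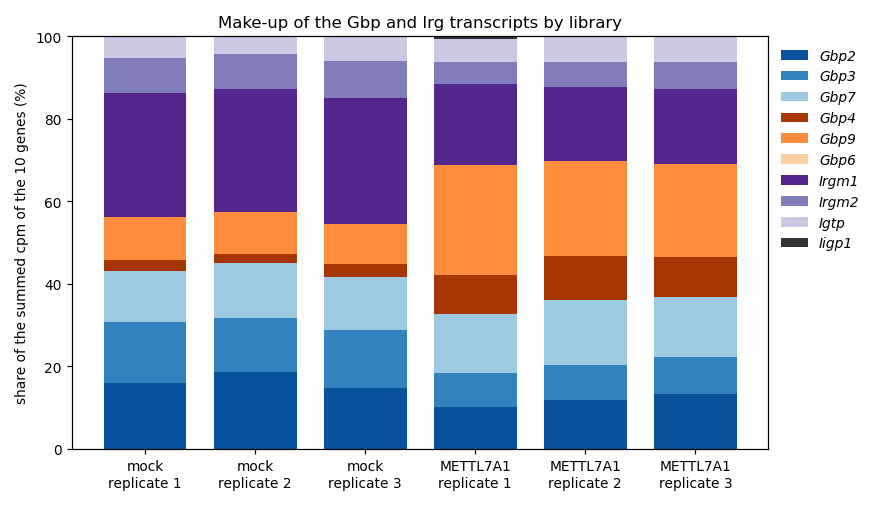
Share of the summed cpm of the 10 GBP and IRG genes, equal to their share of the counts, taken by each gene in each of the 6 libraries (stacked bars, percent of the sum, axis from 0). The shares of Gbp9 and Gbp4 are larger in every METTL7A1 library than in any mock library, while those of Irgm1, Gbp2, Gbp3 and Irgm2 are smaller.

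Ratios between members of the same library, which do not depend on the scaling between libraries, described the same shift. The gene pairs were chosen after their values were seen. The log2 count ratio of Gbp4 to Gbp2 was −0.23 ± 0.20 in METTL7A1 and −2.63 ± 0.47 in mock, and that of Gbp9 to Gbp2 was 1.04 ± 0.34 and −0.69 ± 0.15. Within chromosome 3 the ratio of Gbp7 to Gbp3 was 0.81 ± 0.11 and −0.11 ± 0.15, and within the GMS group the ratio of Igtp to Irgm2 was 0.00 ± 0.06 and −0.77 ± 0.20. None of these ratios overlapped between the groups. The ratio of Gbp3 to Gbp2, −0.45 ± 0.15 in METTL7A1 and −0.23 ± 0.25 in mock, and that of Irgm2 to Irgm1, −1.63 ± 0.19 and −1.81 ± 0.03, did overlap.

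Beside the members, 17 genes of both families had counts. Of these, 5 passed the abundance filter and 3 were higher in METTL7A1 by edgeR's quasi-likelihood test with Benjamini-Hochberg adjustment over all genes. By the same test 21.1% of all genes tested were called higher. Gbp2b, the gene of mouse GBP1 in the chromosome 3 cluster, was read at 8.08, 9.95 and 7.99 cpm in METTL7A1 and at 4.65, 5.20 and 4.27 cpm in mock (log2 fold change 0.89 ± 0.15, adjusted p = 0.000668). The IRG-related gene 9930111J21Rik2 on chromosome 11 was read at 9.75, 9.75 and 10.3 cpm against 2.35, 2.43 and 2.74 cpm (1.98 ± 0.14, adjusted p = 1.79e-06). In both genes the groups did not overlap. The neighbouring gene 9930111J21Rik1 differed by 1.97 ± 0.31 on the log2 scale (adjusted p = 0.000492), but passed the filter through the METTL7A1 libraries alone and shared 85.6% of its stretches of 31 bases with 9930111J21Rik2, so reads of this pair are uncertain.

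Both remaining tested relatives missed the threshold. Ifi47, which encodes the GKS protein IRGD, was read at 2.32, 2.30 and 1.62 cpm in METTL7A1 and at 1.59, 1.57 and 1.13 cpm in mock, with a log2 fold change of 0.55 ± 0.24 and an adjusted p of 0.0915. Irgq, an IRG relative that is not known as an interferon-induced gene, was read at 13.6 ± 1.21 cpm against 12.3 ± 1.83 cpm, with a log2 fold change of 0.15 ± 0.13 and an adjusted p of 0.366. The METTL7A1 and mock libraries of Irgq overlapped.

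The other relatives stayed under the filter, and for them only sums of counts per group are given, with the ratio scaled by library size and its 95% exact counting interval. Gbp5, which promotes inflammasome assembly, had 27 counts in METTL7A1 and 4 in mock (ratio 6.25, from 2.18 to 24.6), and Gbp8 had 52 and 8 (ratio 6.02, from 2.84 to 14.7). Tgtp1 and Tgtp2, near-identical genes of the effector IRGB6, each had 29 and 5 counts (ratio 5.37, from 2.06 to 17.8), and 83.2% of the stretches of 31 bases of Tgtp1 occurred in Tgtp2. Gm12185 had 32 and 9 counts (ratio 3.29, from 1.54 to 7.84). The exception among the genes with at least 10 counts was Gm12250, which encodes the effector IRGB10, with 14 counts in METTL7A1 and 16 in mock (ratio 0.810, from 0.366 to 1.77). Gbp10 had 14 and 2 counts (ratio 6.48, from 1.49 to 58.8), but 89.8% of its stretches of 31 bases occurred in other genes. For Gbp8 and Gm12185 this share was 31.1% and 28.5%. Gbp8 also shared 61 exon bases with Gbp4 and 60 with Gbp9, and Gm12185 shared 223 with Tgtp1. Gbp11, Gm5431, Gm4951, F830016B08Rik and Irgc1 had at most 5 counts in either group. Among the other interferon-inducible GTPases, the antiviral dynamin-like genes Mx1 and Mx2 had 17 and 58 counts in METTL7A1 and 3 and 13 in mock, with ratios of 5.25 (from 1.52 to 28.0) and 4.13 (from 2.24 to 8.22), and Gvin1 had 4 and 1 counts. These intervals cover counting error and not the spread between libraries.

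The members on chromosomes 3, 5 and 11 lie in gene clusters, and the neighbours of these clusters were examined for a shift of the whole region. Iigp1, on chromosome 18, was not among them. The 40 genes nearest to it, chosen in the same way, had a median of 0.30 on the log2 scale. Among the 40 tested genes closest to each cluster, outside both families and with an average level over 2 (log2 cpm), the median difference on the log2 scale was −0.09 around the GBP cluster of chromosome 3 (142496900 to 142638008), −0.03 around that of chromosome 5 (105014153 to 105346472), −0.05 around the Irgm1 cluster of chromosome 11 (48865245 to 49096974) and −0.14 around its Igtp cluster (58187739 to 58222782), against −0.03 for all genes tested. Of the 40 neighbours, 5, 3, 6 and 6 were higher at an adjusted p under 0.05 and 12, 6, 9 and 10 were lower, in the same order. The genes at the edges of the clusters were chosen after their values were seen. Next to the chromosome 3 cluster, Pdlim5 and Kyat3 differed by −0.03 ± 0.07 and −0.04 ± 0.18, and next to the chromosome 5 cluster Lrrc8b differed by 0.12 ± 0.09 (adjusted p = 0.792, 0.878 and 0.302). Trim7, 14.1 kb from the Irgm1 cluster, rose by 1.01 ± 0.17 (adjusted p = 0.000653), and Gemin5, 19.2 kb from the Igtp cluster, fell by 0.53 ± 0.07 (adjusted p = 0.000171).

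**Figure D4:**
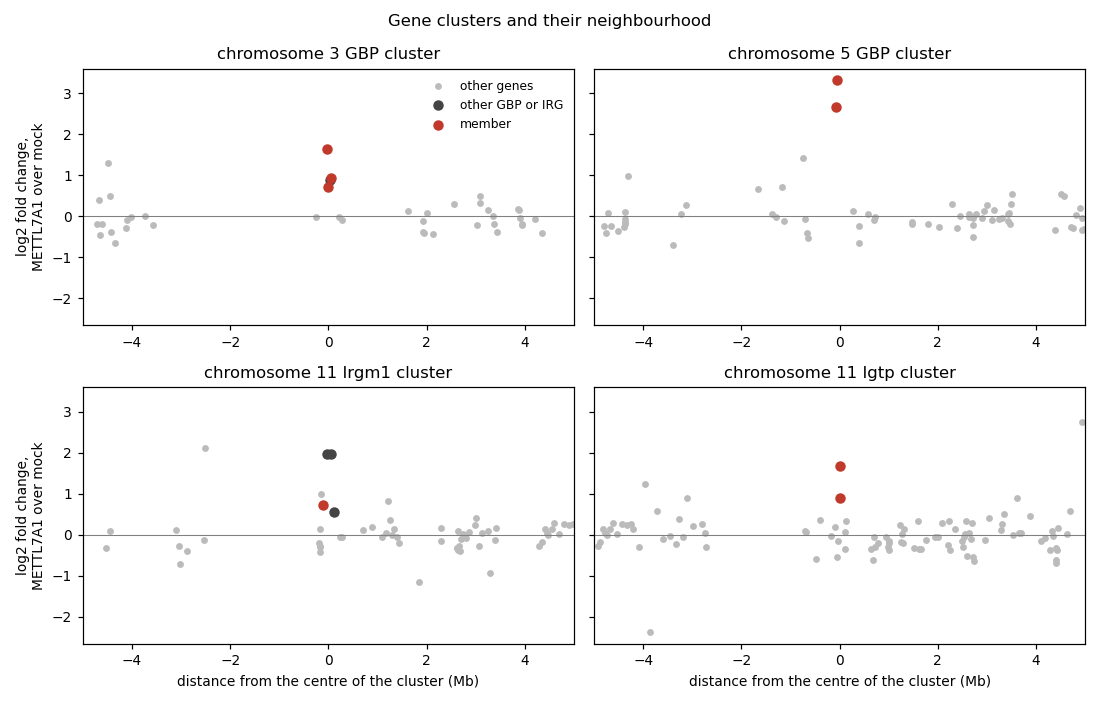
Log2 fold change (METTL7A1 against mock, linear axis of log2 units) by distance from the centre of each of the 4 clusters (Mb), for genes with an average log2 cpm over 2 (small points) and for members and other GBP and IRG genes that were tested (large points). Most small points lie near 0, with medians of the 40 nearest between −0.14 and −0.03, and every large point lies above 0.

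Interferon-γ signals through the receptor chains IFNGR1 and IFNGR2 and the kinases JAK1 and JAK2, and induces Irf1 through GAS. Of 13 genes of this pathway, 11 were tested, of which 4 were higher, 2 were lower and 5 did not pass. Among all genes tested 21.1% were called higher and 21.0% lower. The log2 fold changes of the 11 genes had a median of 0.18. Ifng itself had 0 counts in all 6 libraries, which at the depth of these libraries allows up to 3 counts in each. The receptor and kinase genes Jak1 (−0.01 ± 0.07, adjusted p = 0.901), Jak2 (0.11 ± 0.07, adjusted p = 0.202) and Ifngr2 (0.01 ± 0.10, adjusted p = 0.940) did not pass, and neither did Irf2 (0.19 ± 0.12, adjusted p = 0.235) and the phosphatase gene Ptpn2 (0.18 ± 0.07, adjusted p = 0.0662).

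The transcriptional regulator genes of the pathway that rose were Nlrc5, the transactivator of MHC class I genes, by 1.16 ± 0.12 (adjusted p = 2.82e-05), Irf8 by 0.85 ± 0.16 (adjusted p = 0.00133) and Irf1 by 0.27 ± 0.06 (adjusted p = 0.00545). Irf1 was read at 68.7, 69.1 and 65.4 cpm in METTL7A1 and at 55.9, 56.4 and 55.7 cpm in mock, a small difference with groups that did not overlap. The feedback inhibitors of the pathway moved in opposite directions. Socs1 fell by 0.60 ± 0.19 (adjusted p = 0.0264, from 0.00157 to 0.122 over the alternatives) and Socs3 rose by 0.32 ± 0.11 (adjusted p = 0.0319, from 0.0233 to 0.106). Ifngr1 fell by 0.30 ± 0.09 (adjusted p = 0.0165, from 0.0106 to 0.422), but its neighbours on chromosome 10 had a median of −0.40, and relative to them the difference turned to 0.10. Ciita had 14 and 3 counts and was not tested.

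Type I and type III interferons signal through other receptors to STAT2 and IRF9, which act at the ISRE. Of 13 genes, 10 were tested, of which 8 were higher, none was lower and 2 did not pass. This stands beside 21.1% called higher and 21.0% lower among all genes tested. The log2 fold changes of the 10 genes had a median of 0.70. Usp18, an interferon-induced inhibitor of this pathway, was read at 4.53, 4.74 and 4.18 cpm in METTL7A1 and at 0.328, 0.289 and 0.483 cpm in mock (3.58 ± 0.25, adjusted p = 1.69e-06). It passed the filter through the METTL7A1 libraries alone, as Gbp4 did. Stat2 was read at 30.8, 27.8 and 24.2 cpm against 15.8, 17.1 and 16.2 cpm (0.75 ± 0.10, adjusted p = 0.00016), but its chromosome neighbours had a median of 0.44, and relative to them the difference was 0.32 (adjusted p = 0.0326, from 1.84e-11 to 0.0326 over the alternatives). The receptor genes Ifnlr1 (0.87 ± 0.13, adjusted p = 0.000298), Il10rb (0.86 ± 0.16, adjusted p = 0.00119), Ifnar2 (0.65 ± 0.09, adjusted p = 0.000175) and Ifnar1 (0.42 ± 0.07, adjusted p = 0.000944) and the kinase gene Tyk2 (0.44 ± 0.10, adjusted p = 0.00359) rose as well. Ifnar2, Il10rb and Ifnar1 lie in the same stretch of chromosome 16 (91372783 to 91507441), where their neighbours had a median of 0.175. Relative to its neighbours Ifnar1 stood at 0.24 (adjusted p = 0.0261, from 1.1e-05 to 0.0261). The lowest values of Ifnar2 and Il10rb over the alternatives were 0.48 and 0.69. Irf7 rose by 0.84 ± 0.30 (adjusted p = 0.0443, from 0.0193 to 0.258 over the alternatives), and Irf9 (0.09 ± 0.12, adjusted p = 0.580) and Irf3 (−0.08 ± 0.09, adjusted p = 0.546) did not pass. Of the ligands, Ifnb1 and Ifnl2 had 0 counts in every library, Ifnl3 had 1 count in 1 mock library, and the 13 Ifna genes of the table, counted after the other values were seen, had summed counts of 2, 1 and 0 in METTL7A1 and 0, 3 and 2 in mock.

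**Figure D5:**
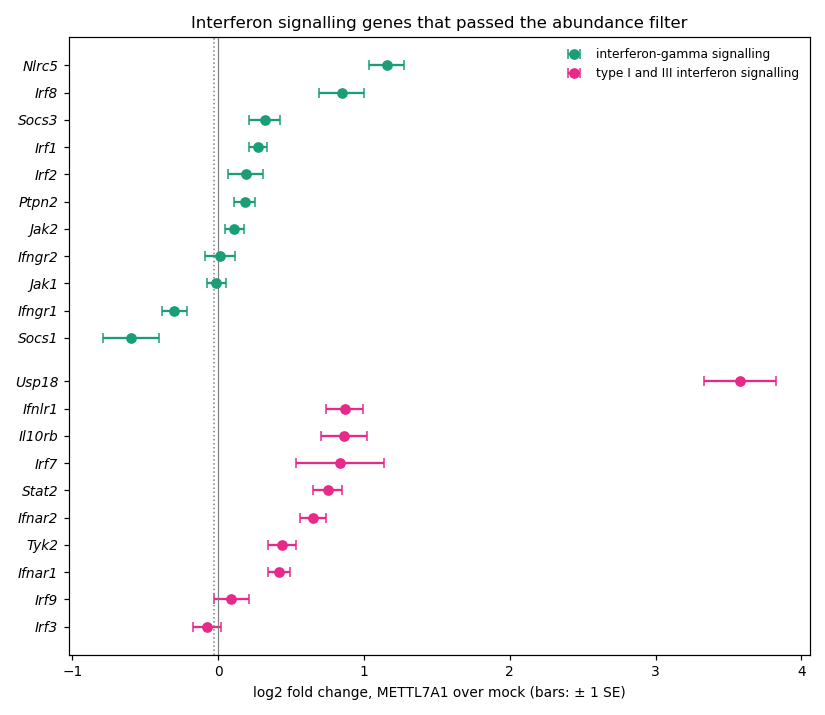
Log2 fold change ± SE (METTL7A1 against mock, linear axis of log2 units) of the tested genes of interferon-γ signalling and of type I and III interferon signalling, in different colours, with a dotted line at the median of all genes tested, −0.03. Jak1 and Ifngr2 lie at −0.01 and 0.01, while Usp18 stands at 3.58.

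Genes that interferon-γ induces and that are not GTPases were counted in the same way. Of 13, 10 were tested, of which 7 were higher and 2 lower, beside 21.1% and 21.0% of all genes tested. Their log2 fold changes had a median of 0.80. The peptide transporter gene Tap1 and the immunoproteasome subunit gene Psmb8 rose by 1.56 ± 0.14 and 1.16 ± 0.14, the chemokine gene Cxcl10 by 1.39 ± 0.18, the nitric oxide synthase gene Nos2 by 1.12 ± 0.11 and Cd274, the gene of PD-L1, by 0.77 ± 0.14. The adjusted p values of these 5 genes lay between 1.27e-05 and 0.00149. The calls of Psmb9 and Ccl5, named after their values were seen, were less stable. Psmb9 rose by 0.82 ± 0.24 (adjusted p = 0.0179, from 0.00631 to 0.0813 over the alternatives). Psmb9, Tap1 and Psmb8 lie in the same stretch of chromosome 17 (34181988 to 34201454), where their neighbours had medians from 0.202 to 0.221. Ccl5 rose by 0.60 ± 0.20 (adjusted p = 0.0336, from 0.0172 to 0.0862). The genes that were lower were Wars, a tRNA synthetase gene, which fell by 0.34 ± 0.08 (adjusted p = 0.00683, from 0.00179 to 0.575 over the alternatives), and Psmb10, another immunoproteasome subunit gene, named after its values were seen, which fell by 0.48 ± 0.13 (adjusted p = 0.0103, from 0.00139 to 0.102). Relative to their chromosome neighbours both calls were lost, with differences of −0.07 for Wars and −0.29 for Psmb10 (adjusted p = 0.575 and 0.102).

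Genes whose products work with the GTPases in the cell were counted next. The ATG8 conjugation machinery is needed for GBPs and effector IRGs to find their vacuoles, and of its 10 genes, all tested, 3 rose (Gabarapl1 by 0.77 ± 0.09, Map1lc3a by 0.82 ± 0.17 and Atg12 by 0.57 ± 0.10), 2 fell (Atg5 by 0.78 ± 0.08 and Atg16l1 by 0.25 ± 0.09) and 5 did not pass, beside 21.1% called higher and 21.0% lower among all genes tested. The libraries of Atg16l1 overlapped, and its adjusted p of 0.0462 ranged from 0.00425 to 0.193 over the alternatives, with the call lost without the abundance filter (0.0806). Relative to their chromosome neighbours Atg5 differed by −0.28 (adjusted p = 0.0262, the highest over its alternatives), and Atg12 by 0.17, which did not pass (adjusted p = 0.237, from 7.41e-07 to 0.237). Of 6 genes of protein prenylation, which attaches some GBPs to membranes, none rose and 2 fell, Icmt by 0.34 ± 0.08 and Fntb by 0.44 ± 0.12, beside the same shares of all genes. The neighbours of Fntb had a median of −0.49, and relative to them its difference turned to 0.056 (adjusted p = 0.759, from 0.0105 to 0.759 over the alternatives).

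Of 9 inflammasome genes, which act downstream of GBPs at bacteria, 7 were tested. Of these, 5 were higher and 2 lower, beside 21.1% and 21.0% of all genes tested. Gsdmd, the gene of the pore former gasdermin D, was read at 15.3, 15.4 and 13.0 cpm in METTL7A1 and at 8.20, 6.77 and 6.92 cpm in mock (1.00 ± 0.12, adjusted p = 8.85e-05). Casp4, the gene of caspase-11, which GBPs help to activate, rose by 1.16 ± 0.24 (adjusted p = 0.00266) and was named after its values were seen, whereas Casp1 fell by 1.82 ± 0.32 (adjusted p = 0.000975) and Ninj1 by 0.89 ± 0.12 (adjusted p = 0.000229). Il18, Nlrp3 and Il1b, with log2 fold changes of 4.55 ± 0.49, 1.40 ± 0.28 and 1.20 ± 0.24, passed the filter through the METTL7A1 libraries alone, and Casp1 through the mock libraries alone. Il18 had 136 counts in METTL7A1 and 5 in mock.

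Cells of other types that express GBPs at high levels were looked for by their markers. Ptprc, the pan-leukocyte marker CD45, had 16 counts in METTL7A1 and 14 in mock, and Cd3e had 0 in every library. Of the macrophage markers, Adgre1, Lyz2 and Itgam had at most 4 counts in either group. The macrophage markers Cd68 and Csf1r had 939 and 175 counts in METTL7A1 and 371 and 50 in mock. The sum of 7 immune markers was 15.5 ± 1.23 cpm in METTL7A1 and 6.46 ± 0.488 cpm in mock, through Cd68 (1.23 ± 0.14, adjusted p = 5.05e-05) and Csf1r (1.68 ± 0.27, adjusted p = 0.000506), of which Csf1r passed the filter through METTL7A1 alone. The part of these genes in the difference of the members was not tested. The 6 epithelial markers summed to 2161 ± 195 cpm in METTL7A1 and 1969 ± 193 cpm in mock, with Krt7 alone passing the test (0.50 ± 0.09, adjusted p = 0.00126, and 0.18 with adjusted p = 0.166 relative to its neighbours, from 6.63e-08 to 0.166 over the alternatives), and 4 stromal and endothelial markers summed to 1.32 ± 0.120 and 1.33 ± 0.469 cpm. In bulk RNA, more cells that express a gene and more RNA per cell cannot be told apart.

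The libraries held between 18386780 and 28459338 counts. Mettl7a1 had 6355, 11358 and 10398 counts in METTL7A1 and 30, 30 and 29 in mock, a log2 fold change of 8.17 ± 0.14 (adjusted p = 4.89e-11), so the labels and the transgene matched in every library. The lowest library total was that of METTL7A1 replicate 1, where the members had 1360 counts in all, and the smallest sum over the members was 483 counts in mock replicate 1.

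The genes whose log2 cpm over the 6 libraries was most like the mean of the 8 tested members were Asah2 (Pearson r = 0.9995), Cflar (0.9993), Sarnp (0.9992), Frmd4b (0.999) and Pttg1 (0.999), none of them a GBP or IRG gene. The measure follows the pattern and not the size of the difference, since Asah2 differed by 1.08 ± 0.08 and Cflar by 0.12 ± 0.06 on the log2 scale. With 3 libraries in each of 2 groups many genes reach high values. Of 11653 genes compared, 1106 (9.49%) had r over 0.95 and 197 (1.69%) had r over 0.99.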

How the data were processed

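RNA-Seq libraries were stranded. Following the methods of the study, the authors trimmed reads with BBDuk, aligned them to mm10 with STAR 2.5.3a and assigned them to Ensembl genes with featureCounts in R 3.5.1, and deposited raw counts per gene with no normalization. The handling of strand and of reads with several places is not given in the sources used here. Genes with shared exons or near-identical copies can therefore exchange or lose reads. Shared exon bases were 637 for Gbp7 with Gm43802, 162 for Irgm2 with Igtp and 60 for Gbp4 with Gbp9. Gm43802 had 0 counts in every library, so reads of Gbp7 could have been lost in counting there. Coordinates are those of the counts table (mm10, counted from 1). All columns of counts belonged to the 6 libraries, and 0 columns were left unused. Groups and replicate numbers came from the sample titles.

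The test was edgeR 4.0.16 under R 4.3.3. The abundance filter of the study was used (1 cpm or more in 3 or more libraries), libraries were scaled by TMM, and METTL7A1 was compared with mock by the two-sided quasi-likelihood test with no covariate. Benjamini-Hochberg adjustment covered all 13166 genes that passed the filter. The fold threshold of the study, given without a base, was read as log2. An SE was obtained by dividing the absolute log2 fold change by √F of the test. Intervals of count ratios are exact binomial intervals and, like the floor of 3 counts, cover counting error only. The script was tested on simulated data.

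The members and gene lists were chosen with earlier results of these data known. One gene of the interferon-γ signalling list and another of the immune markers are not reported here. Beside members and relatives with counts, the text names every tested gene of the interferon signalling lists, the called genes with the 6 smallest p of each other list, the 5 genes most like the members among those with a mean of at least 50 counts, and Mettl7a1, and other names were picked with their values in view. The alternatives tried were scaling by RLE or upper quartile, no filter on abundance, at least 10 counts in every library, DESeq2 1.42.0, voom of limma 3.58.1, a replicate block, an offset by the median of 40 chromosome neighbours with an average log2 cpm over 2, and omission of each library.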

Additional observations from a re-analysis of the deposited data

How the results depend on the processing

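The 8 tested members kept their direction and their side of an adjusted p of 0.05 under every alternative in which they were tested. Their log2 fold changes ranged from 3.20 to 3.50 for Gbp4, 2.63 to 2.72 for Gbp9, 1.59 to 1.81 for Igtp, 1.55 to 1.73 for Gbp7, 0.84 to 1.11 for Gbp2, 0.85 to 1.05 for Irgm2, 0.69 to 0.81 for Gbp3 and 0.68 to 0.77 for Irgm1. Gbp4 was not tested when any one METTL7A1 library was left out, because it then reached 1 cpm in fewer than 3 libraries. Leaving out each library in turn gave 7 to 8 members at an adjusted p under 0.05, 3 to 4 at the thresholds of the study, 2 to 3 other GBP and IRG genes and 10 to 14 of the interferon signalling genes. Without the abundance filter, 8 in place of 3 of the other GBP and IRG genes passed, since Gbp5, Gbp8, Tgtp1, Tgtp2 and Gm12185 were then tested. Relative to their chromosome neighbours, Ifngr1 and Fntb were the called genes named here that changed sign, with log2 fold changes of 0.10 and 0.056 (adjusted p = 0.422 and 0.759). Genes that were not called could change sign too. Ptpn2, Ifngr2 and Jak2 turned to −0.19, −0.18 and −0.03 relative to their neighbours (adjusted p = 0.0742, 0.217 and 0.799). Signalling genes near the threshold lost their calls without single libraries. Ifngr1 did so without mock replicate 1 or 2 (adjusted p = 0.058 and 0.0628), Socs1 without METTL7A1 replicate 2 or 3 or mock replicate 1 or 2 (0.0711 to 0.122), Socs3 without METTL7A1 replicate 2 or 3 or mock replicate 2 or 3 (0.0703 to 0.106), and Irf7 without METTL7A1 replicate 2 or 3 or mock replicate 1 or 3 (0.0574 to 0.258) and with DESeq2 (0.100). Irf2 and Ptpn2 gained a call without mock replicate 3 (0.0198 and 0.0315), as did Irf9 relative to its neighbours (0.0281). For the called genes of the other lists, whose alternatives were chosen after seeing the data, Fntb lost its call without METTL7A1 replicate 2 or mock replicate 2 (0.0524 and 0.0517), Psmb10 without mock replicate 1 (0.0597), and Atg16l1 without METTL7A1 replicate 2 or 3 or mock replicate 1 or 3 (0.0524 to 0.193) and with upper quartile scaling (0.0643). Psmb9 lost its call in 3 and Ccl5 in 7 of their 14 alternatives (adjusted p up to 0.0813 and 0.0862). The numbers of the replicates did not pair the libraries (the deviations of equal numbers correlated at −0.16, 0.23 and −0.39). With a replicate block, the counts were 8 members at an adjusted p under 0.05, 4 at the thresholds of the study, 3 other GBP and IRG genes and 12 in place of 14 signalling genes, with Socs3 and Irf7 lost (0.0682 and 0.0518). Depth limits Gbp6, Iigp1 and the relatives under 1 cpm, for which only counting error was available.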
